A study of Mus musculus with 6 samples.

Results

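The thioredoxin system is described here through 9 genes in primary mouse embryonic fibroblasts (MEFs) treated with erastin. They are the thioredoxin genes Txn1 and Txn2, the thioredoxin-like gene Txnl1, the reductase genes Txnrd1, Txnrd2 and Txnrd3, and the arrestin genes Txnip, Arrdc3 and Arrdc4. They were chosen by symbol from GENCODE M21, and all 9 were found among the 43346 genes of the deposited table and passed the filter on low counts, which left 14000 genes. Erastin blocks the cystine/glutamate antiporter and is used to induce ferroptosis, in which cells die from iron-dependent peroxidation of membrane lipids. All MEFs came from the C57BL/6 strain, were at passage 9 and grew in medium with fetal bovine serum and 2-mercaptoethanol. The 3 control libraries came from cells given DMSO, the solvent, and the 3 erastin libraries from cells given 3 µM erastin, harvested after 24 h. The experiment was done in triplicate, but the labels do not say whether replicates came from separate embryos, so p-values measure the spread between these libraries.

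Thioredoxins are small proteins that reduce disulfide bonds in other proteins, among them peroxiredoxins, methionine sulfoxide reductases and ribonucleotide reductase. Thioredoxin reductases, which are selenoproteins, restore oxidized thioredoxin with electrons from NADPH. TXNIP is an arrestin-fold protein that binds reduced thioredoxin and inhibits it, and that also lowers glucose uptake by driving glucose transporters from the cell surface. ARRDC3 and ARRDC4 belong to the same alpha-arrestin family but lack the cysteine through which TXNIP binds thioredoxin. Transcription of Txnip and Arrdc4 is known to respond to glucose through the factors MondoA and ChREBP with their partner MLX, and Txnrd1 is a known target of NRF2, the main activator of antioxidant genes.

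Total counts ran from 13333911 to 20509970 per library, and no pair of libraries agreed within sampling noise (chi-square per degree of freedom 11.0 to 19.2 for pairs within a group and 78.0 to 123 between groups). All 8 fibroblast markers examined were above 1 CPM (counts scaled to library size with TMM factors). Their summed level was 27490 to 28706 CPM in DMSO and 16126 to 18063 CPM in erastin libraries, so the markers were present in both groups and their sum was lower with erastin. Summed macrophage markers lay at 11.2 to 16.4 CPM in DMSO and 10.5 to 19.3 CPM in erastin libraries, and summed epithelial markers at 2.18 to 3.17 and 2.14 to 3.17 CPM. The 4 endothelial markers summed to 4.65 to 7.09 CPM in DMSO and 13.2 to 16.4 CPM in erastin libraries, carried by Kdr and Tek, whereas the defining genes Pecam1 and Cdh5 had group means of at most 0.372 CPM. Skeletal muscle markers summed to 35.4 to 45.4 and 64.9 to 68.4 CPM, nearly all of it Des, and neural markers to 56.7 to 82.0 and 37.5 to 45.8 CPM, nearly all of it Tubb3. The part of these marker shifts in the results below was not tested.

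Of the 9 genes, 5 were higher with erastin (Txnrd1, Txnrd3, Arrdc4, Txnl1 and Arrdc3), 1 was lower (Txnip), and Txn1, Txn2 and Txnrd2 did not pass the test (edgeR quasi-likelihood test, Benjamini-Hochberg adjusted p-value under 0.05 over all 14000 genes). The treatment was broad: 43.0% of all genes tested passed, 21.6% as higher and 21.5% as lower. The median log2 change (the log2 of the fold change) of the 9 genes was 0.40, against -0.001 for all genes tested. That median is the value of Arrdc3, whose call depended on the processing. The 9 genes and the related lists below were chosen with earlier results of these data known. Comparisons of their counts and medians with all genes therefore do not measure how unusual they are. The 3 erastin libraries lay on one side of the 3 DMSO libraries in 6 of the 9 genes, those that passed, and in 52.5% of all genes tested. Each library pools a whole culture, so a change in RNA per cell cannot be told apart from a change in the share of cells that carry the transcript.

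**Figure D1:**
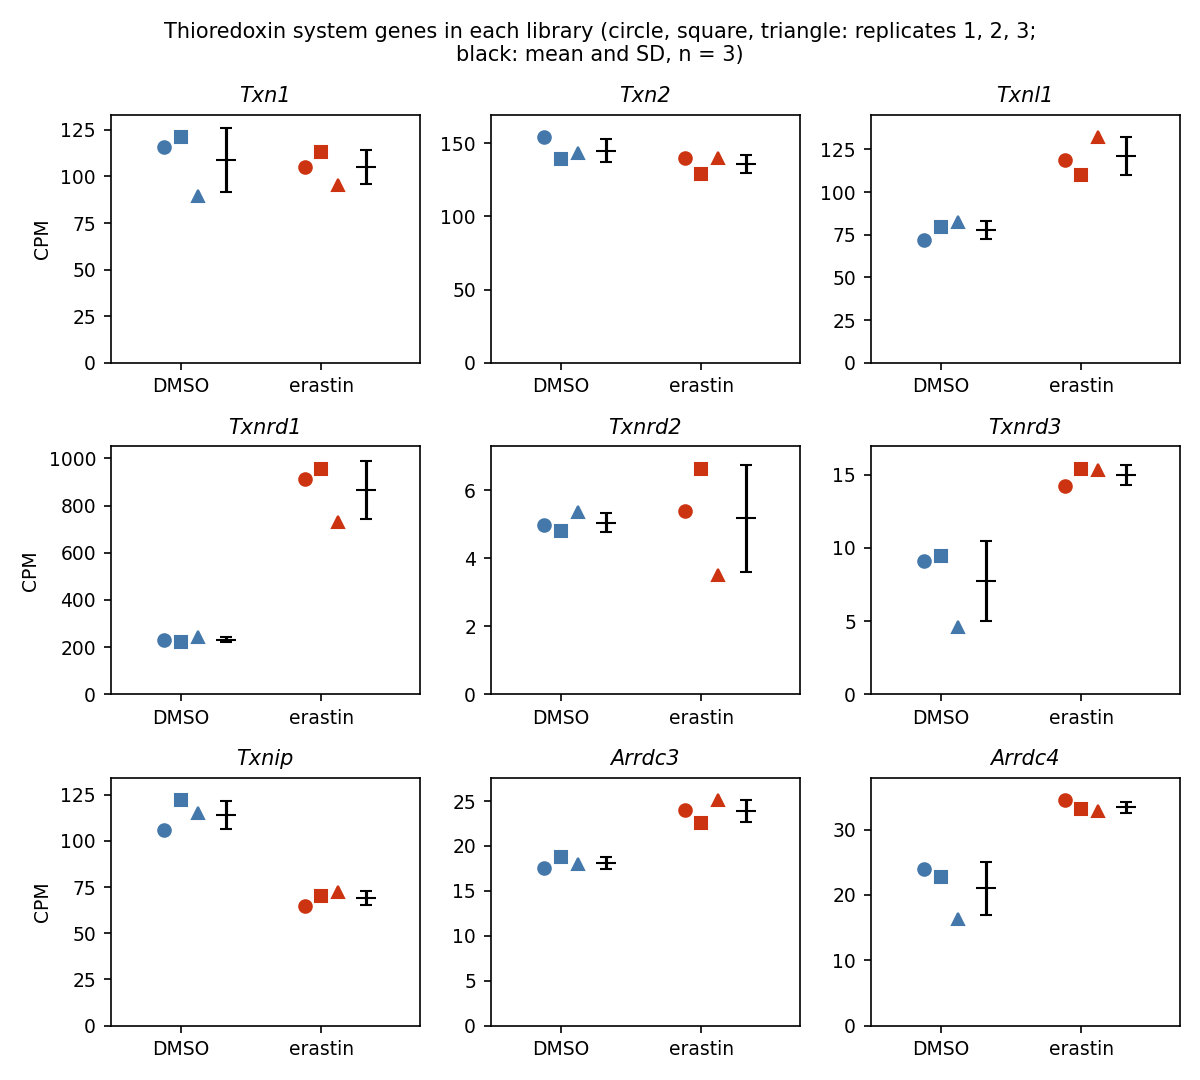
CPM of each gene (vertical axes, each from 0) in the 3 DMSO (blue) and 3 erastin (red) libraries, with replicates 1, 2 and 3 as circle, square and triangle and the mean and SD (n = 3) in black. The groups are apart for Txnrd1, Txnrd3, Txnl1, Txnip, Arrdc3 and Arrdc4 and overlap for Txn1, Txn2 and Txnrd2.

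The sequences upstream of Txnrd1, with the largest rise, and Txnip, the only gene that fell, are shown first, with that of Arrdc4, because Txnip and Arrdc4 moved in opposite directions. Each is the 250 bases before the RefSeq start site, 5′ to 3′ on the gene's strand (GRCm38.p6), with motif matches in capitals.
Txnrd1, second of its 3 RefSeq starts, chr10:82858956-82859205, plus strand: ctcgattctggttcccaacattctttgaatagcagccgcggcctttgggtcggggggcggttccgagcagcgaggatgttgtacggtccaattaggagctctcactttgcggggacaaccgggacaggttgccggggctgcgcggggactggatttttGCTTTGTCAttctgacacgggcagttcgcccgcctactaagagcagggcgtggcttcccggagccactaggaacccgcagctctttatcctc
Txnip, chr3:96557707-96557956, plus strand: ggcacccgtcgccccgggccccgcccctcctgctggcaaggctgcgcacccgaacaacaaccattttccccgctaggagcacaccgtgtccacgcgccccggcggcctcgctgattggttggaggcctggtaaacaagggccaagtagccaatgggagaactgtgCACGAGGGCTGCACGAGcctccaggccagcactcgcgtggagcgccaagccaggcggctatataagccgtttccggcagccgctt
Arrdc4, chr7:68749239-68749488, minus strand: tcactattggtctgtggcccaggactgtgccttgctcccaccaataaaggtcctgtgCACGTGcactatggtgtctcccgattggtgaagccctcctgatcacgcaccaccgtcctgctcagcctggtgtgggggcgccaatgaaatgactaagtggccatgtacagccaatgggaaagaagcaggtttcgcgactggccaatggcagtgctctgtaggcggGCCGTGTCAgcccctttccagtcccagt

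RefSeq promoter windows, 250 bases before to 50 after each start, were used for 8 of the 9 genes (12 windows, Txnl1 not among them). They were searched on both strands for 3 patterns. The first was a carbohydrate response element, a pair of E-box-like sites with a spacer that MondoA, ChREBP and MLX bind (CACGNG, any 5 bases, then CACGNG). The second was the E-box CACGTG, which can form part of the first. The third was the antioxidant response element core that NRF2 binds with small MAF proteins (TGACNNNGC). The Txnip window held the carbohydrate response element pattern as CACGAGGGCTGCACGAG, 85 to 69 bases before the start, and so did 16 of all 32851 windows (0.0487%). The Arrdc4 window held an E-box 193 to 188 bases before the start (7.15% of all windows) and an antioxidant response element core on the other strand, TGACACGGC, 28 to 20 bases before it. The second Txnrd1 window held that core on the other strand as TGACAAAGC, 92 to 84 bases before the start, and 12.4% of all windows held it somewhere. Txnrd1 had 3 windows, and the window printed above is the only Txnrd1 window with a match. The 12.4% is a share per window, so it does not give how often a gene with 3 windows holds the core. No other window searched for these genes held any of the 3 patterns. The carbohydrate response element was respelled after a stricter spelling matched no window. Its share of all windows therefore does not measure how unusual the Txnip match is. These matches describe letters, and binding was not measured.

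Among the reductases, Txnrd1, which encodes the cytosolic enzyme, rose nearly 4-fold. Txnrd1 (ENSMUSG00000020250.9, chr10:82833951-82897712, plus strand) stood at 230, 220 and 242 CPM in DMSO replicates 1 to 3 and at 913, 956 and 729 CPM in erastin replicates 1 to 3. Every erastin library was above every DMSO library, and the erastin libraries differed more among themselves than the controls did. The rise was 3.76-fold (means 231 ± 10.8 and 866 ± 121 CPM, SD, n = 3; log2 change 1.91, SE 0.09, edgeR adjusted p = 1.52e-09). Of the 14000 genes tested, 190 had a larger fitted rise.

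Txnrd3, which encodes thioredoxin glutathione reductase, an enzyme with an added glutaredoxin domain known mainly from testis, was far less abundant and also rose. Its levels were 9.13, 9.47 and 4.59 CPM in DMSO replicates 1 to 3 and 14.2, 15.4 and 15.3 CPM in erastin replicates 1 to 3 (ENSMUSG00000000811.9, chr6:89643988-89675529, plus strand). DMSO replicate 3 was the low library, with 59 reads against 121 and 171 in the other controls. The rise was 1.92-fold (log2 change 0.94, SE 0.24, edgeR adjusted p = 0.00479), and its 95% interval on the log2 scale ran from 0.44 to 1.45. Without DMSO replicate 3 it was 0.68 on the log2 scale and still passed.

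Txnrd2 encodes the mitochondrial reductase and had the fewest reads of the 9 genes over all libraries together, with 66 to 116 in each. It stood at 4.98, 4.82 and 5.36 CPM in DMSO and at 5.39, 6.64 and 3.52 CPM in erastin replicates 1 to 3 (ENSMUSG00000075704.12, chr16:18426384-18479073, plus strand). The erastin libraries lay on both sides of the controls, and the difference did not pass (log2 change 0.04, SE 0.30, edgeR adjusted p = 0.936). The 95% interval, -0.60 to 0.67, does not reach the change of Txnrd1 but includes those of Txnl1 and Arrdc3.

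Neither thioredoxin gene passed the test. Txn1, the cytosolic thioredoxin, stood at 116, 121 and 89.3 CPM in DMSO and at 105, 113 and 95.5 CPM in erastin replicates 1 to 3 (ENSMUSG00000028367.5, chr4:57943373-57956411, minus strand). In both groups replicate 3 was the lowest, and the groups overlapped. The log2 change was -0.06 (SE 0.11, 95% interval -0.30 to 0.17, edgeR adjusted p = 0.685), and its sign turned under some of the settings tried. Txn2, the mitochondrial thioredoxin, stood at 154, 139 and 143 CPM in DMSO and at 140, 129 and 140 CPM in erastin replicates 1 to 3 (ENSMUSG00000005354.11, chr15:77915047-77929006, minus strand). Here too the groups overlapped (log2 change -0.09, SE 0.08, 95% interval -0.26 to 0.08, edgeR adjusted p = 0.391). The intervals of both genes end below the lower bound for Txnl1.

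Txnl1 encodes a thioredoxin-like protein that associates with the proteasome. Its levels were 72.1, 79.3 and 82.4 CPM in DMSO and 119, 110 and 132 CPM in erastin replicates 1 to 3 (ENSMUSG00000024583.2, chr18:63661094-63708801, minus strand). The groups did not overlap, and the rise was 1.55-fold (log2 change 0.63, SE 0.09, edgeR adjusted p = 6.11e-05). After an offset for GC content and transcript length the log2 change was 0.38 and still passed (edgeR adjusted p = 0.00284; range over 15 alternatives 2.62e-10 to 0.00284). Wdr7, on the opposite strand, shares 1.81% of the exon bases of Txnl1.

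Txnip, the inhibitor of thioredoxin, was the only one of the 9 genes to fall. It stood at 106, 122 and 115 CPM in DMSO and at 64.6, 70.4 and 72.2 CPM in erastin replicates 1 to 3 (ENSMUSG00000038393.10, chr3:96557957-96561883, plus strand). All erastin libraries lay below all controls, and within each group the libraries were close together. The fall was 1.66-fold (means 114 ± 7.78 and 69.1 ± 3.98 CPM, SD, n = 3; log2 change -0.73, SE 0.09, edgeR adjusted p = 9.51e-06), and 2048 of the 14000 genes had a larger fitted fall. The antisense gene Gm15441 shares 19.4% of the exon bases of Txnip but had at most 5 reads in any library, against at least 1178 for Txnip.

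The related alpha-arrestin genes Arrdc4 and Arrdc3 were higher with erastin, but the call of Arrdc3 depended on the processing. Arrdc1 and Arrdc2, described below with the other arrestin genes, did not pass (log2 changes -0.31 and 0.02). Arrdc4, an adaptor that recruits ubiquitin ligases to membrane proteins, stood at 24.0, 22.7 and 16.3 CPM in DMSO and at 34.5, 33.1 and 32.8 CPM in erastin replicates 1 to 3 (ENSMUSG00000042659.10, chr7:68736995-68749241, minus strand). DMSO replicate 3 was the lowest library, and the groups did not overlap. The rise was 1.59-fold (log2 change 0.67, SE 0.14, edgeR adjusted p = 0.00155). Arrdc3, an adaptor known for downregulating the beta-2 adrenergic receptor, stood at 17.5, 18.8 and 18.0 CPM in DMSO and at 24.0, 22.6 and 25.1 CPM in erastin replicates 1 to 3 (ENSMUSG00000074794.5, chr13:80883384-80896042, plus strand). The groups were apart but close, with a rise of 1.32-fold (log2 change 0.40, SE 0.13, edgeR adjusted p = 0.0220). This call was lost after the GC and length offset (log2 change 0.20, edgeR adjusted p = 0.231). It was also lost without DMSO replicate 1, erastin replicate 1 or erastin replicate 3 (edgeR adjusted p = 0.0596, 0.0688 and 0.0625; range over 15 alternatives 0.0108 to 0.273).

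**Figure D2:**
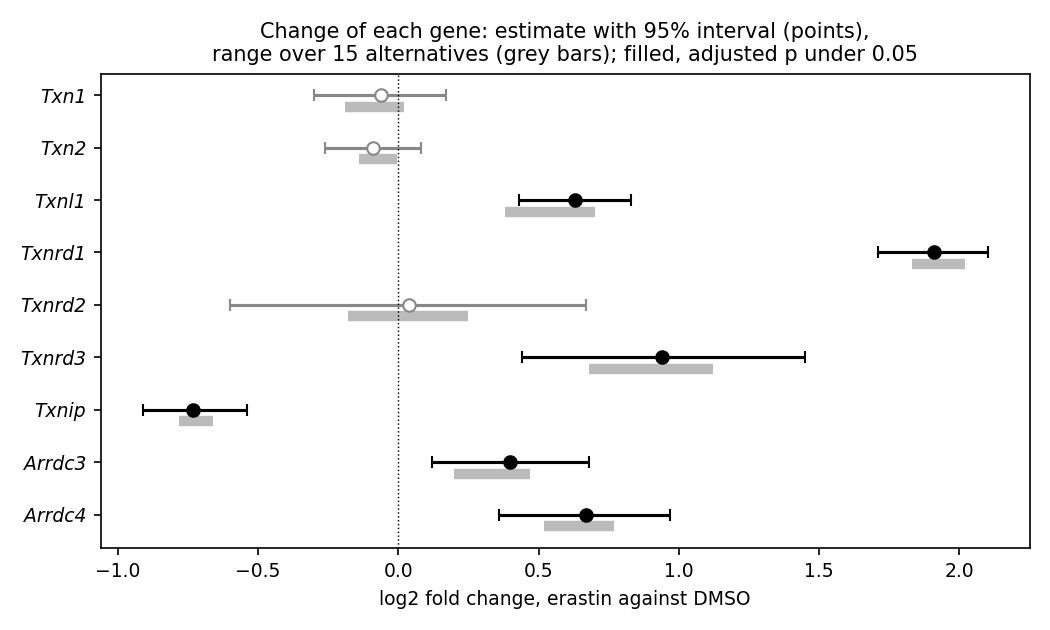
Log2 change of each gene with erastin against DMSO (horizontal axis): points with 95% intervals for the reported fit, filled where the adjusted p-value was under 0.05, and grey bars for the range over 15 alternatives. Txnrd1 at 1.91 stands above the other genes, Txnip at -0.73 is the only gene below 0 with a filled point, and the bar of Arrdc3 reaches down to 0.20.

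Levels can be compared between genes only per length, here as CPM per kilobase of merged M21 exons. In DMSO libraries Txn1 was the most abundant (mean 104, range 85.0 to 115), followed by Txnip (36.6), Txn2 (34.5) and Txnrd1 (32.5). The ranges of Txnip and Txn2 overlapped, as did those of Txn2 and Txnrd1, so these neighbours did not differ beyond their spread. Txnl1 (12.0) and Arrdc4 (5.20) came next, and Arrdc3 (2.88) and Txnrd3 (2.72), whose ranges overlapped, lay above Txnrd2 (1.15). In erastin libraries Txnrd1 (122, range 103 to 135) and Txn1 (99.5, range 90.9 to 108) shared the top with overlapping ranges, and the following levels were 32.4 for Txn2, 22.1 for Txnip, 18.7 for Txnl1, 8.28 for Arrdc4, 5.28 for Txnrd3, 3.81 for Arrdc3 and 1.18 for Txnrd2. None of these later neighbours overlapped. This order depends on the length used. Per kilobase of the longest M21 transcript, a scale chosen after the data were seen, DMSO libraries had Txn1 at 104, Txn2 at 70.8, Txnrd1 at 63.6 and Txnip at 40.4, and the ranges of these neighbours did not overlap. On that scale the range of Arrdc3 (mean 4.37) in DMSO libraries overlapped that of Arrdc4 (5.38) and no longer that of Txnrd3 (2.72). In erastin libraries Txnrd1 (239, range 201 to 264) lay above Txn1 (99.5, range 90.9 to 108), Txnl1 (27.8) and Txnip (24.4) changed places with overlapping ranges, and Arrdc3 (5.78) lay above Txnrd3 (5.28). Txn1 was above Txnrd1 in DMSO libraries on both scales, whereas in erastin libraries their ranges overlapped on the first scale and not on the second.

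Ratios of read counts within a library do not depend on how libraries were scaled, and 4 were compared. There were 1.97, 1.82 and 2.71 Txnrd1 reads per Txn1 read in DMSO and 8.72, 8.43 and 7.63 in erastin replicates 1 to 3, a 3.87-fold higher ratio. Txnrd1 reads per Txnrd2 read were 46.1, 45.7 and 45.1 in DMSO and 169, 144 and 207 in erastin libraries, a 3.76-fold difference. The ratio of Txnip, the inhibitor, to Txn1 was 0.914, 1.01 and 1.28 in DMSO and 0.618, 0.621 and 0.757 in erastin libraries, 1.60-fold lower. The ratio of Arrdc4 to Txnip was 0.226, 0.186 and 0.143 in DMSO and 0.533, 0.469 and 0.454 in erastin libraries, 2.67-fold higher. In each of the 4 ratios the groups did not overlap. The exact two-sided permutation test gave p = 0.1 for each, the smallest that 3 libraries against 3 allow, and 0.1 after adjustment over the 4 ratios, so this test could not pass the threshold.

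**Figure D3:**
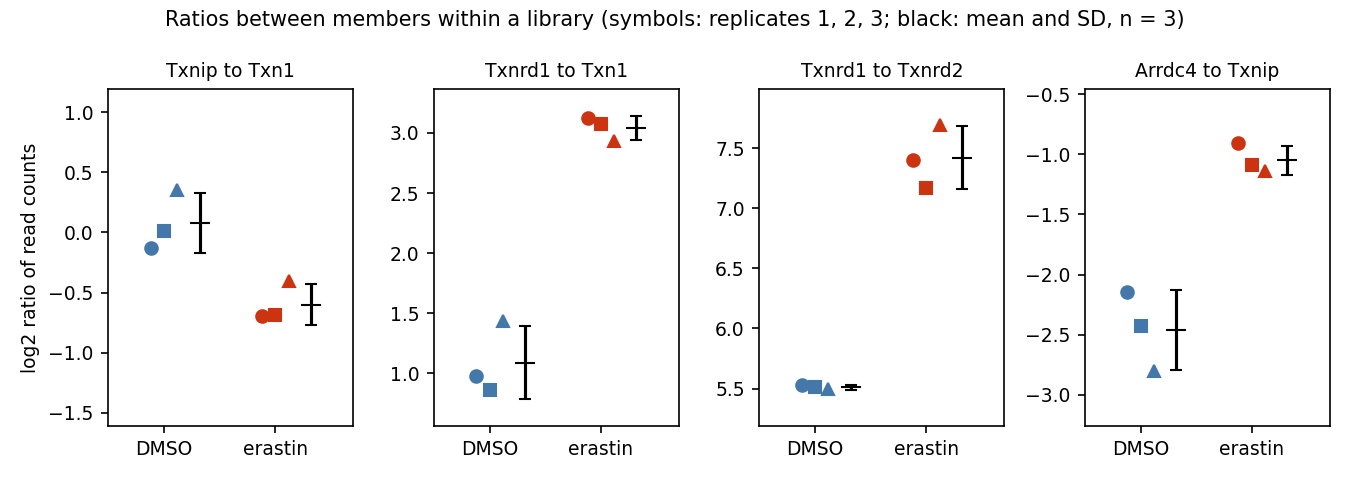
Log2 ratio of read counts of 2 genes within each library (vertical axes, each spanning the same length on the log2 scale) in DMSO (blue) and erastin (red) libraries, with replicates 1, 2 and 3 as circle, square and triangle and the mean and SD (n = 3) in black. The ratio of Txnip to Txn1 is lower with erastin by 0.67 on the log2 scale, and the other ratios are higher by 1.95, 1.91 and 1.42.

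Of 14 genes for proteins that thioredoxin reduces or that act beside it, 2 were higher, 7 lower and 5 did not pass, with a median log2 change of -0.58. All genes tested had a median of -0.001, and 21.6% of them passed as higher and 21.5% as lower; the counts of the lists that follow are read against these shares too. Srxn1, which encodes sulfiredoxin, the enzyme that repairs overoxidized peroxiredoxins, rose from 98.5 ± 8.11 to 307 ± 45.5 CPM (SD, n = 3; log2 change 1.64, edgeR adjusted p = 2.04e-08). Prdx1, the main cytosolic peroxiredoxin, rose from 280 ± 28.8 to 388 ± 17.3 CPM (SD, n = 3; log2 change 0.47, edgeR adjusted p = 0.000267). The methionine sulfoxide reductase genes Msrb1, which encodes a selenoprotein, and Msrb3 fell from 70.4 to 28.1 CPM and from 247 to 120 CPM (log2 changes -1.32 and -1.04, edgeR adjusted p = 1.12e-07 and 3.46e-07). The other genes of the list that fell, named after their values were seen, were Prdx2, Prdx3, Prdx4, Prdx5 and the ribonucleotide reductase subunit gene Rrm2, with log2 changes of -0.69 to -0.32. The fall of Prdx3 passed in only 11 of 15 alternatives (edgeR adjusted p = 0.0212; range 0.00802 to 0.0815) and was lost with total-count scaling and without DMSO replicate 1, DMSO replicate 3 or erastin replicate 1.

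Of 17 other thioredoxin-fold and disulfide reductase genes, 2 were higher, 5 lower and 10 did not pass, with a median of 0.08. Gsr, which encodes glutathione reductase, rose from 25.5 ± 1.20 to 40.1 ± 3.06 CPM (SD, n = 3; log2 change 0.65, edgeR adjusted p = 0.000270), and Tmx3, a thioredoxin-related protein of the endoplasmic reticulum membrane, rose by 0.29 on the log2 scale (edgeR adjusted p = 0.0185). The rise of Tmx3 was 0.02 after the GC and length offset and did not pass there (edgeR adjusted p = 0.907; range over 15 alternatives 0.00920 to 0.907), nor with the offset and the replicate block, with upper-quartile factors, or without DMSO replicate 2, DMSO replicate 3 or erastin replicate 1. Nxn, which encodes nucleoredoxin, a regulator of Wnt signalling, fell from 270 ± 24.9 to 90.4 ± 6.06 CPM (SD, n = 3; log2 change -1.58, edgeR adjusted p = 5.09e-09). Txndc5, a protein disulfide isomerase of the endoplasmic reticulum, fell from 530 ± 20.9 to 323 ± 15.0 CPM (SD, n = 3; log2 change -0.71, edgeR adjusted p = 1.06e-06). The other genes that fell were Txndc11, Txndc17 and Txndc15, with log2 changes of -0.72, -0.61 and -0.34. The call of Txndc15 was lost with total-count scaling and without DMSO replicate 1, erastin replicate 1 or erastin replicate 2 (edgeR adjusted p = 0.0229; range over 15 alternatives 0.00810 to 0.124). None of the 4 glutaredoxin genes, Glrx, Glrx2, Glrx3 and Glrx5, passed, with log2 changes of -0.10 to 0.36. These 7 genes were named after their values were seen.

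The list of genes that handle selenium or build selenocysteine into proteins such as the thioredoxin reductases was divided. Of 7 genes 3 were higher, 3 lower and 1 did not pass, with a median of 0.41. Scly, which encodes selenocysteine lyase, rose from 10.2 to 18.1 CPM, and Sephs2, which makes the selenium donor, from 26.6 to 41.0 CPM (log2 changes 0.83 and 0.63, edgeR adjusted p = 0.00118 and 0.000927). Eefsec, the elongation factor that delivers selenocysteine, fell from 17.2 to 10.7 CPM, and Trnau1ap, a protein associated with its transfer RNA, from 22.3 to 15.2 CPM (log2 changes -0.69 and -0.55, edgeR adjusted p = 0.00569 and 0.00975). The call of Trnau1ap was lost without erastin replicate 1 (edgeR adjusted p = 0.0580; range over 15 alternatives 0.00443 to 0.0580). The others were named after their values were seen. Secisbp2, whose protein binds the RNA element that marks selenocysteine codons, rose by 0.71 on the log2 scale (edgeR adjusted p = 0.00553). Pstk, the kinase that acts on the transfer RNA, had a log2 change of -0.60 (edgeR adjusted p = 0.0181), and its call was lost without DMSO replicate 2 or erastin replicate 3 (edgeR adjusted p = 0.0694 and 0.0630; range over 15 alternatives 0.00308 to 0.0694). Sepsecs, the synthase of the last step, was at 0.41 and did not pass (edgeR adjusted p = 0.0810; range over 15 alternatives 0.0476 to 0.260).

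Of the 4 other arrestin genes tested, 0 passed as higher and 1 as lower, a share near the 21.5% of all genes tested. Arrb1, which encodes beta-arrestin 1, fell from 16.3 ± 2.70 to 11.1 ± 1.89 CPM (SD, n = 3; log2 change -0.55, edgeR adjusted p = 0.0299). That call was lost without DMSO replicate 2 or 3 and without erastin replicate 1 or 3 (edgeR adjusted p up to 0.110; range over 15 alternatives 0.0182 to 0.110). Arrdc1, Arrdc2 and Arrb2 did not pass, with log2 changes of -0.31, 0.02 and 0.04, 95% intervals that reached from -0.91 to 0.88 in all and means of at most 5.72 CPM. Arrdc5 had no reads in any library and was not tested.

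In the list of Mondo factors, their partner MLX, ubiquitin ligases that bind arrestins and glucose transporters, 3 of 10 genes tested were higher, 1 was lower and 6 did not pass, with a median of 0.23. Slc2a1, which encodes the glucose transporter GLUT1 that TXNIP draws from the cell surface, rose from 108 ± 13.4 to 404 ± 66.4 CPM (SD, n = 3; log2 change 1.90, edgeR adjusted p = 1.45e-08). Nedd4l rose from 25.9 ± 2.97 to 67.3 ± 8.04 CPM and its paralog Nedd4 fell from 1912 ± 18.5 to 1590 ± 126 CPM (SD, n = 3; log2 changes 1.38 and -0.27, edgeR adjusted p = 3.42e-07 and 0.00609); both encode ubiquitin ligases. The third gene that was higher, the ligase gene Wwp1, stood at 102 and 122 CPM (log2 change 0.25, edgeR adjusted p = 0.0233). Its log2 change was -0.01 after the GC and length offset (edgeR adjusted p = 0.903), and it passed in 8 of 15 alternatives (range 0.00762 to 0.906). It did not pass with upper-quartile factors or without DMSO replicate 1, DMSO replicate 3, erastin replicate 2 or erastin replicate 3. Mlxip, which encodes MondoA, stood at 31.0 ± 0.835 and 26.4 ± 4.65 CPM and Mlx at 23.4 ± 3.24 and 27.7 ± 5.82 CPM (SD, n = 3), without passing (edgeR adjusted p = 0.198 and 0.247). Without erastin replicate 3, Mlx had a log2 change of 0.41, against 0.25 with all libraries, and passed (edgeR adjusted p = 0.0344; range over 15 alternatives 0.0344 to 0.566). Mlxipl, which encodes ChREBP, averaged at most 0.162 CPM in either group and was not tested. Mlx, Mlxip, Wwp1 and Itch, the ligase known to mark TXNIP for degradation (log2 change -0.01, edgeR adjusted p = 0.946), were named after their values were seen.

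**Figure D4:**
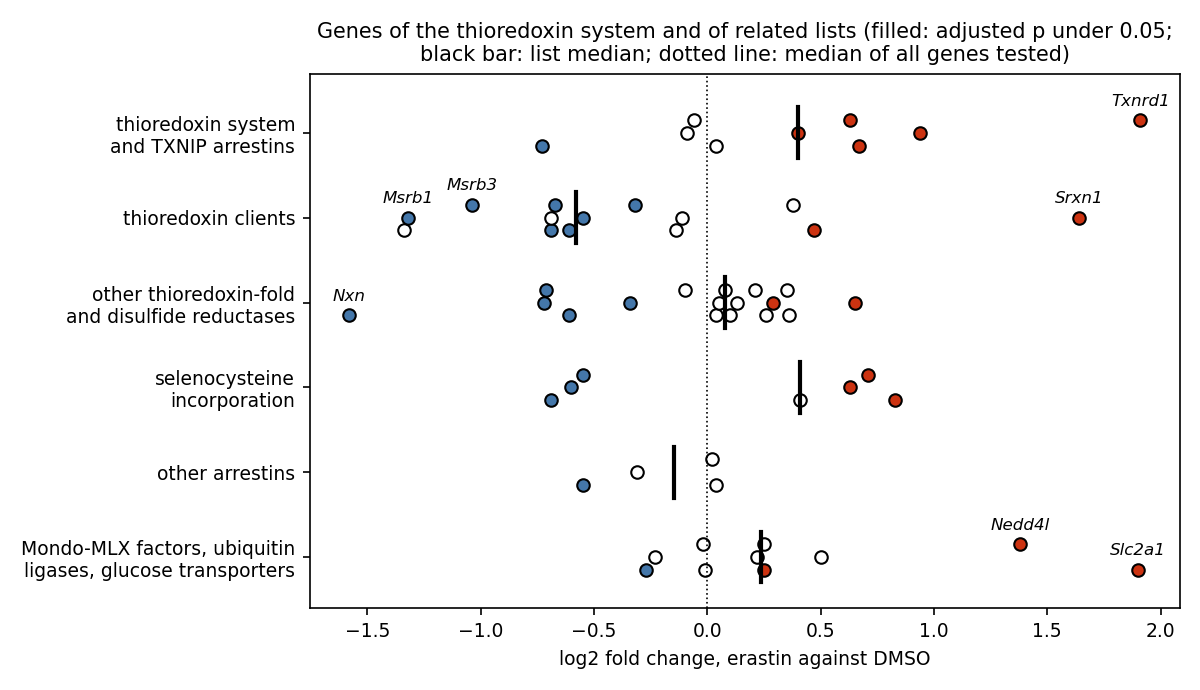
Log2 change with erastin against DMSO (horizontal axis) of the 9 genes and of the genes tested in 5 related lists, with filled points for adjusted p-values under 0.05 (red higher, blue lower), black bars for list medians and a dotted line for the median of all genes tested, -0.001. Txnrd1, Srxn1 and Slc2a1 stand farthest to the right at 1.91, 1.64 and 1.90, and Nxn farthest to the left among filled points at -1.58.

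The genes with the profiles most like those of Txnip and Txnrd1 were found by the root-mean-square difference between log2 CPM values over the 6 libraries, each profile centred on its DMSO mean, among 11231 genes whose count averaged 50 or more. Closest to Txnip were Chst2, Pdlim2, Asph, Igfbp6 and Scarf2, with differences of 0.034 to 0.055 and log2 changes of -0.78 to -0.72. Closest to Txnrd1 were Flnc, Cobll1, Ero1l, Gclm and Mt2, with differences of 0.065 to 0.108 and log2 changes of 1.81 to 1.96. The closest, Flnc, Cobll1 and Ero1l, stood at 838, 24.5 and 85.0 CPM in DMSO and at 3031, 91.0 and 319 CPM in erastin libraries. Gclm and Mt2 came after them, at 39.7 and 31.4 CPM in DMSO and at 154 and 110 CPM in erastin libraries. Gclm encodes a subunit of the enzyme that starts glutathione synthesis, and Mt2 a metallothionein. With 2 groups of 3 libraries, likeness mainly reflects an equal size of change.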

How the data were processed

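RNA was sequenced from 3 DMSO-treated and 3 erastin-treated MEF cultures after ribosomal RNA depletion, on an Ion Proton instrument, per the labels' protocols. The authors deposited whole-number read counts per gene without normalization; the submitters' processing notes name HTSeq 0.9.1, SAMtools and mm10, while the aligner, annotation and strand setting are not given in the sources used here. Column names were matched to the numbers in the samples' descriptions, and 0 columns were left unused. Of 43346 Ensembl identifiers, 42462 (98.0%) matched GENCODE M21 (GRCm38) without version; coordinates and exon lengths come from M21, promoter windows from RefSeq on GRCm38.p6.

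Genes were kept by filterByExpr (minimum count 10, total 15). Counts were tested with edgeR 4.0.16 in R 4.3.3 (TMM factors, quasi-likelihood test, treatment as the only term). The threshold was a Benjamini-Hochberg adjusted p-value of 0.05 over 14000 genes. SEs and 95% intervals come from the fitted weights and posterior dispersion. The pipeline was tested on simulated data. A level of 3 counts was worth 0.14 to 0.23 CPM, and without molecular identifiers this covers counting error only.

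Alternatives were RLE and upper-quartile factors, total-count scaling, 2 other filters, the replicate block, an offset for GC content and transcript length (mgcv 1.9.3) without and with the block, DESeq2 1.42.0, an adjusted p-value under 0.01, leaving out each library and, added after the data were seen, levels per longest transcript. The members, lists and motifs were chosen with earlier results of these data known, and the carbohydrate response element was respelled after a stricter spelling matched no window. Genes named were the 9 members, up to 2 genes per direction with the smallest p-values from each list, all genes of the list of other arrestins, the 5 closest profiles, and the markers and overlapping genes; others are said to be named after their values were seen.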

Additional observations from a re-analysis of the deposited data

How the results depend on the processing

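Txnrd1, Txnrd3, Txnl1, Txnip and Arrdc4 kept their direction and passed in all 15 alternatives run for each. Arrdc3 passed in 10 of 15. It lost the threshold with the GC and length offset (0.20, adjusted p = 0.231), the same offset with the replicate block (0.20, adjusted p = 0.273), or in 3 of the 6 fits that left out 1 library (0.37 to 0.44 over the 6). The values of 2 genes that passed nowhere changed sign. Txn1 was 0.00046 with scaling by total count only and ran from -0.19 to 0.02 when 1 library was left out. Txnrd2 was -0.02 with upper-quartile factors and ran from -0.18 to 0.25 when 1 library was left out. Wwp1 was -0.01 with the offset, with or without the block. Among the named list genes that had not passed, Itch was 0.05 with total-count scaling, 0.01 without a filter and -0.10 to 0.10 when 1 library was left out. Arrdc2 was -0.03 and Arrb2 -0.01 with upper-quartile factors, Arrb2 was -0.03 with the replicate block, and they ran from -0.19 to 0.37 and from -0.36 to 0.24 when 1 library was left out. The cause of these changes was not tested. From 4 to 5 members were higher and 1 lower in every alternative, while 4305 to 6104 genes passed over the whole table.

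The replicate block gave 5 members higher, 1 lower and 5883 genes in all, against 6027 without it. Equal numbers had a mean correlation of 0.0128, against -0.00628 for different numbers, and 3 of 6 libraries correlated best with their own number. With 3 libraries per group this check cannot decide whether libraries of equal number are paired. The median of all genes was -0.055 with upper-quartile factors and 0.065 with total-count scaling. The median of the thioredoxin client list was then -0.63 and -0.51, and -0.51 with the offset, with or without the block. The median of the other thioredoxin-fold genes was 0.03 and 0.15, and 0.02 with the offset, with or without the block; 1 of them rather than 2 was higher with upper-quartile factors and with the offset, with or without the block, and 3 were higher with total-count scaling and with the block alone; 4 rather than 5 were lower with total-count scaling. The median of the other arrestins was 0.02 with the offset. Read counts per library were 66 to 116 for Txnrd2, and its 95% interval spanned -0.60 to 0.67.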
